A study of Mus musculus with 18 samples.

Results

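The mitosis and spindle genes are a set of 54 genes whose products enter, build or end cell division: cyclins and Cdk1, mitotic kinases, spindle checkpoint and kinetochore proteins, the chromosomal passenger complex, kinesins, spindle proteins, cytokinesis proteins, anaphase regulators and condensins. They were chosen by name, with earlier results of these data known. Each is represented by the probe set that carries its symbol alone. Where a gene has several, the one with the highest mean over the arrays was taken. 53 of the 54 had such a probe set, out of 19938 genes on the array. Ccnb1, which encodes cyclin B1, is the member without one and is not analysed here.

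The arrays hold mRNA of natural killer (NK) cells from spleens of ICR mice, male or female and 6 weeks old, that were Runx3 +/+ (WT) or Runx3 -/- (KO). Runx3 encodes a Runt-domain transcription factor that lymphocytes use as they mature. All animals of both genotypes had 2 injections of complexes of interleukin-15 with its receptor alpha chain, 2 days apart, so no group shows unstimulated cells. NKp46+ cells were sorted as CD27+CD11b- (CD27), CD27+CD11b+ (DP) and CD27-CD11b+ (CD11b), from the least to the most mature stage, which gave 6 groups of 3 arrays. The series' design text writes CD11c for the last subset where the sample labels, followed here, write CD11b. Whether arrays of one replicate number came from 1 animal, and whether animals were pooled, is not given in the labels, and p-values here reflect array-to-array spread, which may be in part technical. The values are log2 intensities normalized by the authors, from 3.91 to 14.97, and the number of arrays limits their precision. The gating markers followed the gates: Cd27 stood between 11.03 and 11.91 in CD27 and DP cells and between 8.75 and 10.22 in CD11b cells, and Ncr1, which encodes NKp46, between 13.45 and 13.81 on all 18 arrays. Itgam, which encodes CD11b, stood at 9.25 to 10.62 in CD27, 11.59 to 12.43 in DP and 11.98 to 12.63 in CD11b cells. It was lower on each KO array than on every WT array in DP and CD11b, with an average KO minus WT difference of -0.55 log2 (limma adjusted p = 0.0365) with all arrays and -0.53 log2 (limma adjusted p = 0.108) without KO replicate 3. Runx3 itself was 1.43-fold lower in CD27, 1.55-fold lower in DP and 1.40-fold lower in CD11b KO cells (limma adjusted p = 0.0416, 0.0175 and 0.0416). The place of its probes relative to the deletion is not given, so this does not measure how much of the gene is lost.

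A dividing cell makes most of these mRNAs in the G2 and M phases. In resting cells the DREAM complex, built on the MuvB core, holds many of their promoters silent through an element called the cell cycle gene homology region (CHR). In cycling cells B-Myb and FoxM1 join MuvB at the same promoters and raise transcription, often with NF-Y at nearby CCAAT boxes. Genes for DNA synthesis are made earlier, at G1/S, mostly through E2F sites. NK cells are largely quiescent in the spleen, and interleukin-15 is the cytokine that keeps them alive and drives them into division. The question addressed is how the level of this programme differs between genotypes and between stages under that stimulus.

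Promoters of 43 of the 53 genes are in the RefSeq table used here (build GRCm38.p6, 250 bases before to 50 after the start). The CHR, searched as TTTGAA on both strands, was present in 33 of the 43 (76.7%), against 18.1% of 27025 promoters of the same length, 1 per gene, and 16.5% of 17492 protein-coding ones. Within 50 bases of the start the shares were 69.8% and 4.92%. The CCAAT box, searched as CCAAT on both strands, was in 72.1% of the members' promoters against 37.9% of all; both elements were in 65.1% against 7.12%. The E2F site, searched on both strands as TTGGCGC, or else as TTCCCGC, or else as TTGCCGC, or else as TTCGCGC, was in 20.9% against 9.69%. In 34 promoters of DNA replication genes the CHR and E2F shares were the other way: 17.6% held the CHR and 61.8% an E2F match. The CCAAT box was in 61.8% of them, also above the share of all promoters. These are matches of letters in a window, not measured binding sites.

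**Figure D1:**
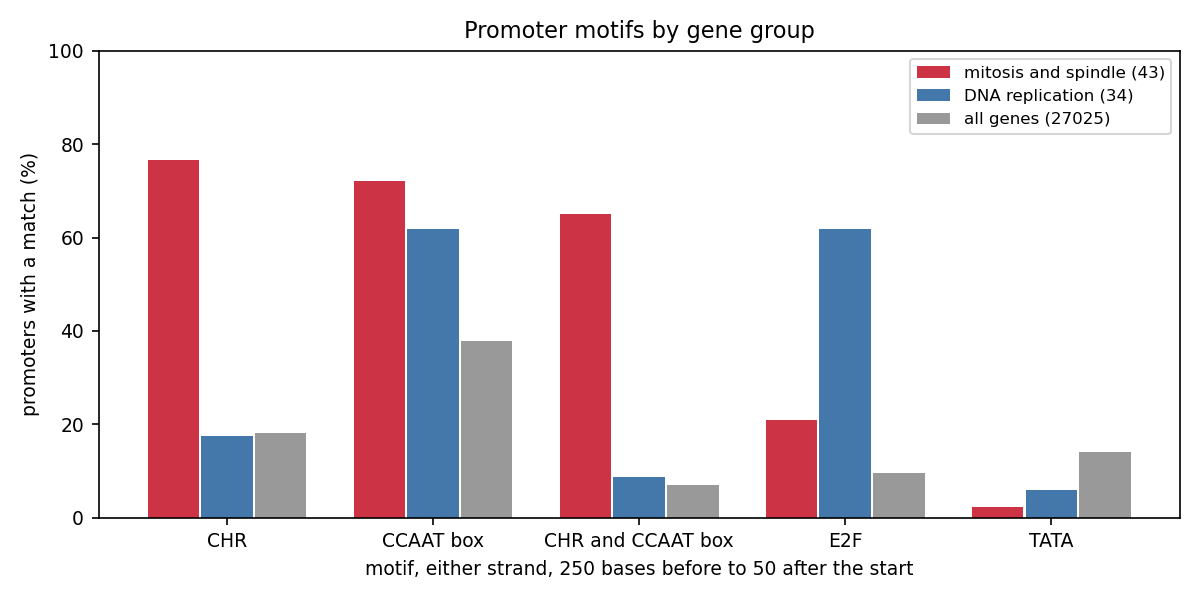
Share of promoters with a match to each motif, in percent, on either strand from 250 bases before to 50 after the start, for 43 mitosis and spindle genes, 34 DNA replication genes and all 27025 genes. The CHR bar is 76.7% for the mitosis genes and below 20% for the others; the E2F bar is highest, at 61.8%, for the DNA replication genes.

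Below are 140 bases of 6 of these promoters, from 120 bases before to 20 after the start, on the strand of the gene and 5′ to 3′. Ccnb2, Prc1, Cdk1 and Kif18b are shown because they rose in KO cells and carry the CHR, Nusap1 because it rose without one in this window, and Cdc25b because it has none and its levels overlapped between genotypes. Capitals mark matches to the CHR, and to the CCAAT box or its reverse complement ATTGG.
Ccnb2, chr9:70421535-70421674, minus strand: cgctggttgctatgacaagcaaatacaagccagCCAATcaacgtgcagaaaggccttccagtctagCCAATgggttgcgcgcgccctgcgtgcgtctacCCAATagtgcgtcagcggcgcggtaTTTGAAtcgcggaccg
Prc1, chr7:80294331-80294470, plus strand: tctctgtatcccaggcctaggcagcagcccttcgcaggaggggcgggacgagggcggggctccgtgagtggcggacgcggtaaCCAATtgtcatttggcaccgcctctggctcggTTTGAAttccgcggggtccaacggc
Cdk1, chr10:69352893-69353032, minus strand: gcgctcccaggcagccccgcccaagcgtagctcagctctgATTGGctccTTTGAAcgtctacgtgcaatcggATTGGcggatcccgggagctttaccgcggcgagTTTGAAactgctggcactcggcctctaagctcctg
Kif18b, chr11:102925105-102925244, minus strand: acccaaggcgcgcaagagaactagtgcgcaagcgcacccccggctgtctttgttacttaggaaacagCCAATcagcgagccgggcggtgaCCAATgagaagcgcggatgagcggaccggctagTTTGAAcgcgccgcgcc
Nusap1, chr2:119618178-119618317, plus strand: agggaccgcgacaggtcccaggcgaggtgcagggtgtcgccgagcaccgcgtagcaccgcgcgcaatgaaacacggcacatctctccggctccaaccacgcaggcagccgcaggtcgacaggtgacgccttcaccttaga
Cdc25b, chr2:131186828-131186967, plus strand: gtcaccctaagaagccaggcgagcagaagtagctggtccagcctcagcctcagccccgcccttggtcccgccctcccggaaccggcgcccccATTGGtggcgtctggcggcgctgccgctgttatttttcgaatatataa
The first 4 share a layout, with CCAAT boxes upstream of a TTTGAA that lies near the start. Counted from the start and within the printed stretch, the TTTGAA of Ccnb2 begins at base 5 and its CCAAT boxes at -87, -54 and -21. Prc1 has a TTTGAA at -5 and a CCAAT box at -37, and Kif18b a TTTGAA at 4 with boxes at -53 and -30. Cdk1 holds a TTTGAA at -71 and another at -15, with reversed boxes at -80 and -48. Further upstream in the searched window, Ccnb2 has another TTTGAA at -167. There Cdk1 has a reversed box at -208 and E2F matches at -178 and -130. Without KO replicate 3, the median KO minus WT difference over the 3 subsets was 0.83 log2 in the 33 genes with a CHR and 0.67 in the 10 without. In that average 28 of the 33 and 8 of the 10 passed in limma (2.74% of all probe sets were called higher). Kif20b, Kif23, Racgap1, Smc2 and Ncapg carry a CHR and did not pass. The difference between genes with and without a CHR was not tested.

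The mean of the 53 genes was higher on each KO array than on every WT array, and the KO arrays differed widely among themselves. With all arrays 52, 52 and 53 of the 53 differences between KO and WT were above 0 in CD27, DP and CD11b, and 48, 52 and 49 without KO replicate 3. That mean was 6.58 to 6.85 on the 9 WT arrays and 7.43, 7.81 and 7.92 on KO array 1 of CD27, DP and CD11b. It was 7.01, 7.38 and 7.64 on KO array 2 and 9.72, 10.13 and 9.75 on KO array 3. The same order, KO array 3 above KO array 1 above KO array 2 above every WT array, held for 38 of 53 genes in CD27, 46 in DP and 42 in CD11b. Of all 35399 probe sets 1.88%, 2.16% and 2.32% show it. Median differences from the WT mean of the subset were 0.64, 1.16 and 1.11 log2 for KO array 1, 0.33, 0.66 and 0.74 for KO array 2, and 3.25, 3.73 and 3.21 for KO array 3. The median SD of a gene among 3 KO arrays was 1.49, 1.60 and 1.19 log2, against 0.161, 0.112 and 0.117 among the WT arrays; over all probe sets it was 0.0906 to 0.138 in the 6 groups. In bulk samples like these, a larger share of dividing cells and more of these mRNAs per dividing cell cannot be told apart.

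**Figure D2:**
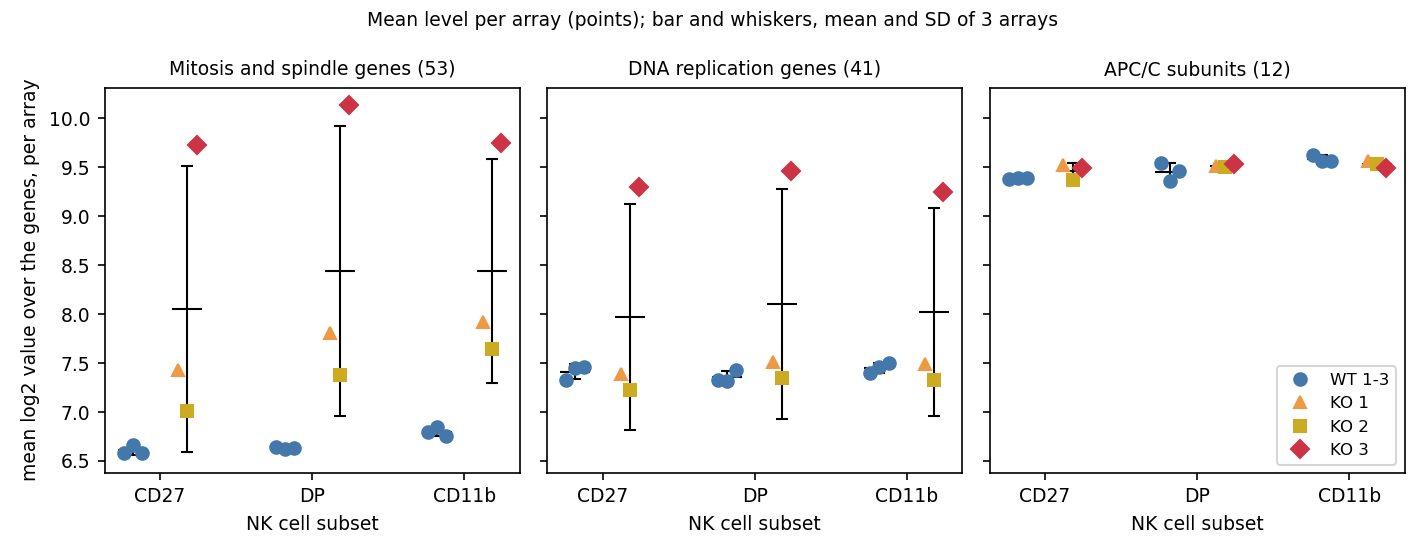
Mean log2 value per array of the 53 mitosis and spindle genes, 41 DNA replication genes and 12 subunits of the anaphase-promoting complex, by subset; blue circles are WT arrays, and the KO arrays are marked by replicate, with bars and whiskers for the mean and SD of 3 arrays. For the mitosis genes all 9 KO arrays lie above all WT arrays of their subset, for the replication genes KO array 3 alone does in all 3 subsets, and the complex's subunits show no such gap.

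On KO replicate 3, several lists of genes typical of other blood cells stood above the WT arrays of the same subset. Dendritic and MHC class II markers averaged 7.29, 7.83 and 10.60 in CD27, DP and CD11b (6.26 to 6.71 on the 9 WT arrays), with 6, 6 and 6 of 7 above every WT array of the subset; the exception was Itgax, which NK cells also express. Neutrophil and progenitor markers averaged 5.27, 5.86 and 8.54 (4.93 to 5.09 in WT; 3, 6 and 9 of 9 above), and their defining gene Ngp was at 4.95 and 5.15 in CD27 and DP, in the range of WT, and at 12.12 in CD11b. Macrophage markers averaged 5.49, 5.75 and 7.40 (5.51 to 5.66; 1, 6 and 6 of 7), and B and plasma cell markers 5.22, 5.17 and 6.69 (5.07 to 5.23; 1, 2 and 5 of 6). These 4 lists were highest in CD11b. Mast cell and basophil markers averaged 6.63, 6.18 and 6.53 (5.10 to 5.39; 3, 2 and 4 of 4) and erythroid markers 6.77, 5.66 and 6.37 (5.20 to 5.48; 4, 2 and 5 of 5), both highest in CD27. Of the 5 erythroid markers only 1, Car1, was over 2-fold above the WT mean in each subset, by 5.73, 1.83 and 4.99 log2. The median difference of the 5 was 0.52, 0.06 and 0.20 log2. T cell markers averaged 6.99, 6.36 and 6.64, against 7.24 to 7.71, 6.50 to 6.58 and 5.86 to 6.07 in WT (1, 2 and 5 of 8 above). In CD27 their differences from the WT mean ran from -2.26 log2 in Cd3e to 1.74 in Cd4. The 11 NK markers averaged 12.70, 12.82 and 12.77 on this replicate. In WT they averaged 12.57 to 12.71 in CD27, 12.90 to 12.97 in DP and 13.04 to 13.09 in CD11b. The average on KO replicate 3 lay below every WT array in DP and CD11b and inside the WT range in CD27. In CD27 the highest difference from the WT mean was that of Gzmb, 2.03 log2, and 2 of the 11 lay above every WT array. The median difference of the 11 was -0.17 log2 there, against -0.15 in DP and -0.27 in CD11b.

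Measured against the WT arrays of the same subset, KO array 2 had 2 of the 7 lists of other cells above WT in CD11b, T cell markers at 6.17 (5.86 to 6.07) and erythroid markers at 5.25 (5.20 to 5.24), and none in CD27 or DP. On this array 41, 49 and 46 of the 53 mitosis genes stood above every WT array of their subset, against 31.7%, 23.1% and 24.6% of all probe sets. KO array 1 had none of the 7 lists above WT in CD27 and 1 in DP, the dendritic markers at 6.53 (6.39 to 6.46). The T cell list held opposite differences from the WT mean in CD27. Cd3e was at -3.52 and -3.22 log2 on KO arrays 1 and 2, and Cd4 at 1.22 and 0.68. In CD11b all but the B cell list averaged above WT on KO array 1, the T cell list by the least, with Lyz2 at 7.96 (5.02 to 5.32 in WT CD11b), Car1 at 7.47 (5.27 to 5.41) and Cd74 at 6.97 (5.12 to 5.26). The part of these cells in the level of the mitosis genes was not tested. Apart from Ccnb2 in CD27 and Prc1 in all subsets, no genotype difference of a member within a subset passed with all 18 arrays, so the other calls of members within a subset named below rest on the fit without KO replicate 3.

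**Figure D3:**
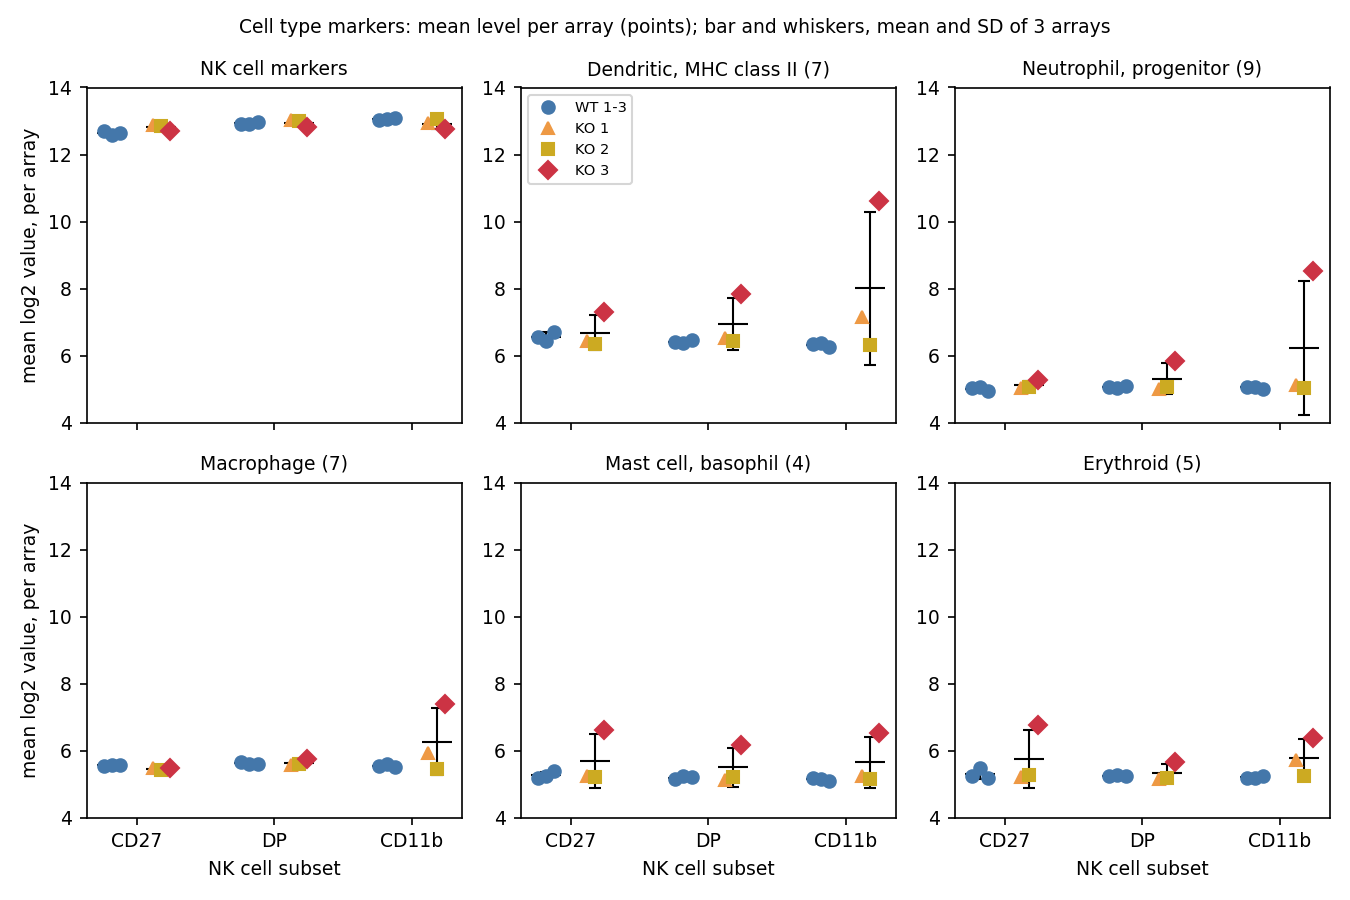
Mean log2 value per array of 6 cell type marker lists, by subset and genotype, with bars and whiskers for the mean and SD of 3 arrays. KO array 3, the red diamond, stands above the WT arrays for dendritic, mast cell and erythroid markers in all 3 subsets and reaches 10.60 and 8.54 for dendritic and neutrophil markers in CD11b; KO array 2 lies within or close to the range of the WT arrays.

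Sex-linked genes also split the arrays. Xist stood at 12.48 to 13.00 on arrays 2 and 3 of WT and array 3 of KO, and at 5.13 to 5.69 on array 1 of WT and arrays 1 and 2 of KO. Among the low-Xist arrays alone, both KO arrays lay above the WT array for 45 of 53 genes in CD27, 50 in DP and 48 in CD11b (30.6%, 30.7% and 35.1% of all probe sets), with median differences of 0.57, 0.97 and 1.01 log2. The high-Xist arrays include 1 KO array a subset, KO array 3.

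With all 18 arrays, limma called 2 of the 53 genes higher in KO CD27 cells, Ccnb2 and Prc1 (0.257% of all probe sets were called higher), 1 in DP, Prc1 (0.169%), and 1 in CD11b, Prc1 (0.455%). Averaged over the subsets, 28 were higher (2.8%). None of the 53 was lower (0.65%, 0.226%, 0.836% and 5.28% of all probe sets). The median differences were 1.41, 1.97, 1.73 and 1.73 log2, against -0.02 to -0.01 over all probe sets, and 16, 35, 25 and 49 of the 53 had an unadjusted p under 0.05 (11.6%, 9.64%, 13% and 20.8% of all probe sets). All 3 KO arrays lay above all 3 WT arrays for 39 genes in CD27 (5.66% of all probe sets), 48 in DP (6.07%) and 45 in CD11b (7.5%).

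Leaving KO replicate 3 out, the differences were smaller and more of them passed. 10 genes rose in CD27 (0.534% of all probe sets), 20 in DP (0.364%), 33 in CD11b (0.701%) and 43 in the average (2.74%), and none fell (0.751%, 0.192%, 0.655% and 3.57%). Both KO arrays lay above the 3 WT arrays for 39, 48 and 45 genes (13.5%, 10.7% and 14% of all probe sets). The median differences were 0.47, 0.97, 0.96 and 0.82 log2. 2 KO arrays remain a subset, and KO array 1 weighs heavily: without it too, with a single KO array assumed to vary like the other groups, 3, 3 and 5 genes passed. Leaving out a WT array gave 5 to 7, 9 to 13 and 18 to 20. Shares of all probe sets are not given for leaving out a further array, so these counts are not set against a background. The average counts the 3 arrays of a replicate number as separate samples. When they were averaged first, none passed with 3 WT against 3 KO values (0.0763% of all probe sets; 20 of 53 at an unadjusted p under 0.05, against 12% of all), and 5 passed with 3 against 2 (0.105%), namely Cdk1, Nuf2, Kif11, Prc1 and Ube2c.

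**Figure D4:**
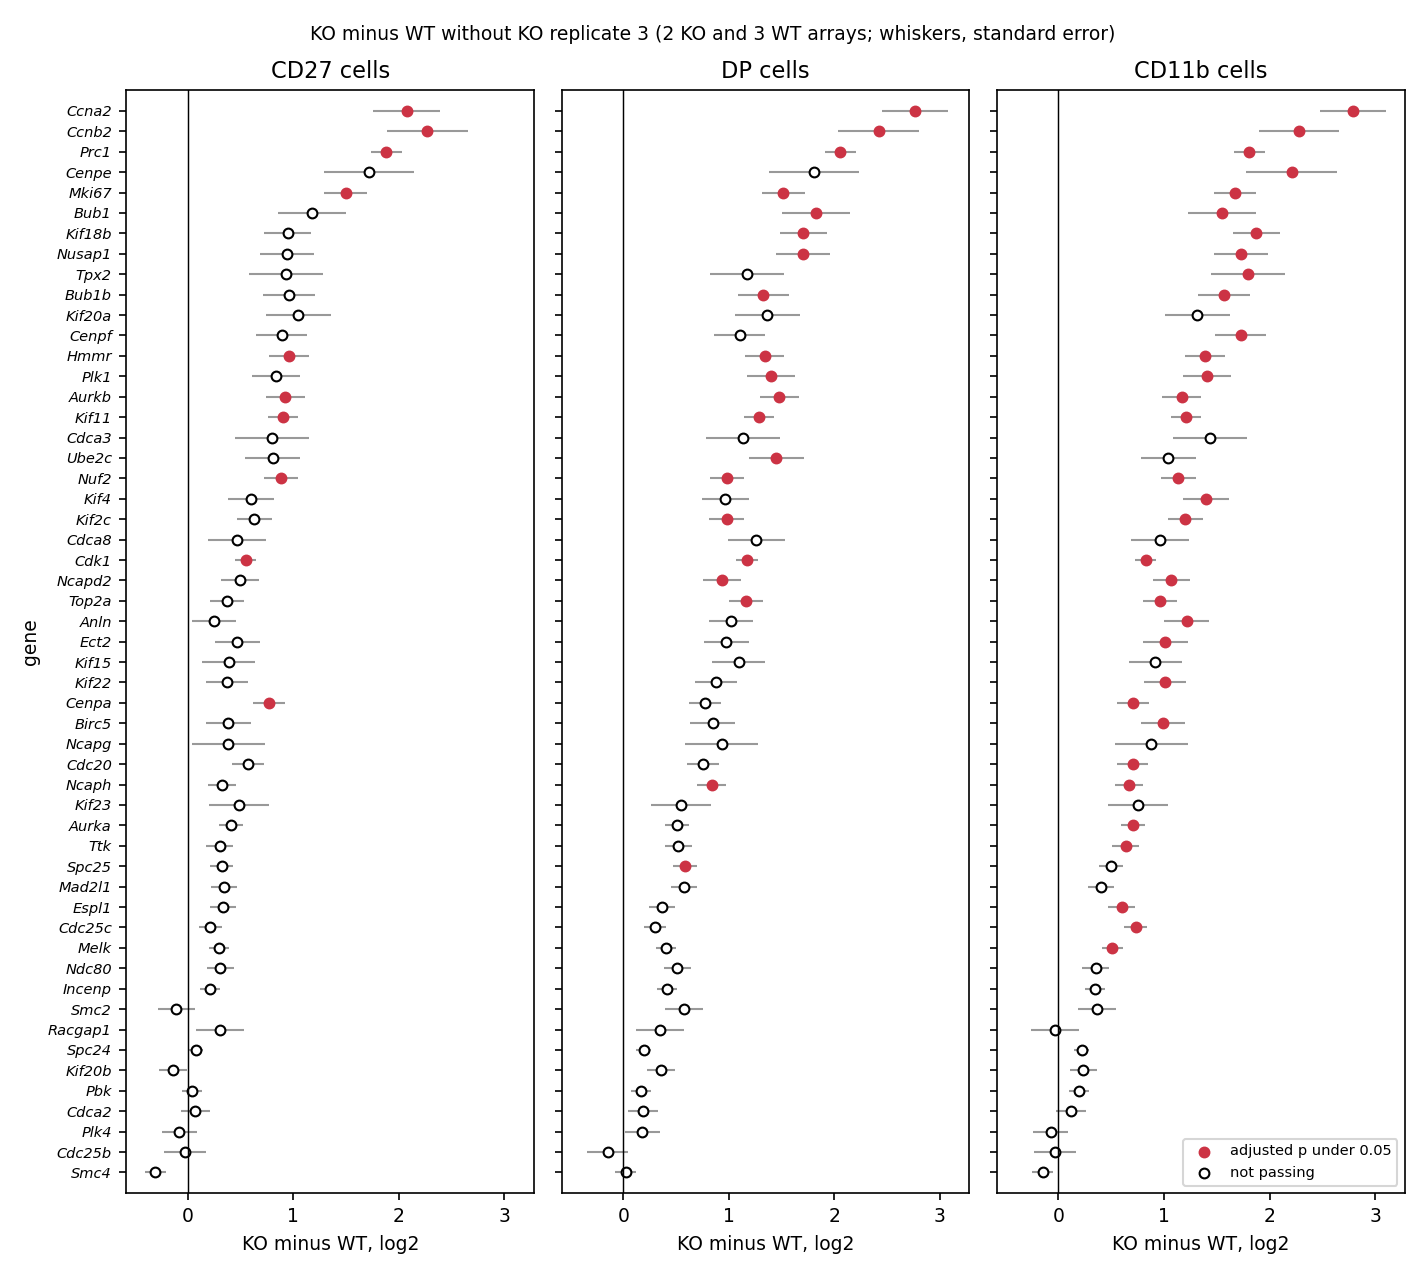
KO minus WT difference of each gene in log2 without KO replicate 3 (2 KO and 3 WT arrays), by subset, with standard errors from limma; filled points passed an adjusted p of 0.05 and open points did not. Filled points number 10, 20 and 33, Ccna2, Ccnb2 and Prc1 are among those filled in all 3 panels, and Cdc25b and Smc4 at the bottom lie near 0 or below it.

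The cyclins had the largest average differences of the 53 genes, with and without KO replicate 3. Ccna2 encodes cyclin A2, which drives Cdk2 and Cdk1 through S phase and G2. In CD27 cells it had WT arrays 1 to 3 at 5.92, 6.57 and 5.95 and KO arrays 1 to 3 at 8.80, 7.65 and 11.63. In DP cells it had WT arrays 1 to 3 at 6.25, 6.42 and 6.13 and KO arrays 1 to 3 at 9.35, 8.72 and 11.96. The CD11b cells had WT arrays 1 to 3 at 6.39, 6.76 and 6.37 and KO arrays 1 to 3 at 9.48, 9.11 and 11.75. The genotypes did not overlap in any subset, and even the lowest KO array, number 2 in CD27, lay well above the highest WT array. With all arrays the average difference was 11.5-fold (95% interval 5.12 to 25.7, limma adjusted p = 0.0014). It did not pass when the 3 arrays of a replicate number were averaged first (limma adjusted p = 0.213). The value without KO replicate 3 was 4.21-fold (95% interval 2.6 to 6.8, limma adjusted p = 0.0109) in CD27, 6.8-fold (95% interval 4.21 to 11, limma adjusted p = 0.00247) in DP and 6.91-fold (95% interval 4.28 to 11.2, limma adjusted p = 0.00156) in CD11b.

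Ccnb2 encodes cyclin B2, a partner of Cdk1 at mitotic entry. It had WT arrays 1 to 3 at 8.37, 8.06 and 7.40 and KO arrays 1 to 3 at 10.80, 9.62 and 12.19 in CD27. In DP it had WT arrays 1 to 3 at 8.19, 7.84 and 7.85 and KO arrays 1 to 3 at 10.73, 10.04 and 12.37. The CD11b cells had WT arrays 1 to 3 at 8.89, 8.24 and 8.01 and KO arrays 1 to 3 at 10.82, 10.50 and 12.08. No KO array overlapped a WT array, and KO array 2 was the lowest of the KO arrays throughout. The CD27 difference was 7.6-fold (95% interval 2.96 to 19.5, limma adjusted p = 0.0456) with all arrays and 4.81-fold (95% interval 2.69 to 8.61, limma adjusted p = 0.0188) without KO replicate 3.

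Cdk1, the kinase of mitotic entry, was tightly grouped in WT. Its values in CD27 were 6.53, 6.45 and 6.46 in WT and 7.12, 6.94 and 10.20 in KO. They were 6.54, 6.53 and 6.50 against 7.84, 7.55 and 10.54 in DP and 7.01, 7.10 and 6.83 against 7.89, 7.72 and 10.31 in CD11b. KO arrays 1 and 2 lay close together and above WT each time, and KO array 3 far above both. None of the subset differences passed with all arrays (limma adjusted p = 0.453 to 0.536). With KO replicate 3 left out, Cdk1 was 2.25-fold (95% interval 1.93 to 2.63, limma adjusted p = 0.000625) higher in DP, with 1.46-fold in CD27 and 1.77-fold in CD11b (limma adjusted p = 0.0273 and 0.00235). Of the phosphatases that activate Cdk1, Cdc25c was 1.66-fold (95% interval 1.41 to 1.96, limma adjusted p = 0.00741) higher in CD11b without KO replicate 3 and did not pass in the other subsets. Cdc25b did not follow: it had WT arrays 1 to 3 at 9.99, 10.31 and 9.54 and KO arrays 1 to 3 at 9.86, 9.99 and 10.24 in CD27. The genotypes overlapped in all 3 subsets, and its average difference was 0.05 ± 0.11 log2 (limma, ± SE; adjusted p = 0.867) with all arrays and -0.07 ± 0.11 log2 (limma, ± SE; adjusted p = 0.837) without KO replicate 3.

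Of the 5 mitotic kinases, Plk1 differed most and Plk4 least. Plk1, polo-like kinase 1, acts at entry, at centrosomes and at kinetochores. It had WT arrays 1 to 3 at 6.13, 6.70 and 6.31 and KO arrays 1 to 3 at 7.50, 6.93 and 10.19 in CD27. The DP arrays were at 6.28, 6.41 and 6.51 in WT and 8.15, 7.45 and 10.67 in KO, and the CD11b arrays at 6.52, 6.66 and 6.64 and 8.20, 7.83 and 10.16. Each KO array lay above each WT array of its subset, by little for KO array 2 in CD27. Plk1 rose without KO replicate 3 in DP, 2.65-fold (95% interval 1.87 to 3.74, limma adjusted p = 0.0227), and in CD11b, 2.66-fold (95% interval 1.88 to 3.76, limma adjusted p = 0.012); CD27 gave 1.78-fold (95% interval 1.26 to 2.52, limma adjusted p = 0.112). Aurka, the centrosome kinase Aurora A, had 9 WT values of 5.72 to 6.03, with 6.37 to 6.73 on KO array 1 and 6.20 to 6.44 on KO array 2, and passed without KO replicate 3 in CD11b, 1.63-fold (95% interval 1.37 to 1.93, limma adjusted p = 0.012). Plk4, the kinase of centriole duplication, stood at 7.07 to 7.82 in WT, 7.12 to 7.79 on KO arrays 1 and 2 and 9.55 to 9.80 on KO array 3. It was high on KO array 3 alone, and its average difference without that replicate was 0.01 ± 0.10 log2 (limma, ± SE; adjusted p = 0.983). Pbk gave the same picture, with 4.92 to 5.25 in WT, 5.08 to 5.47 on KO arrays 1 and 2 and 7.34 to 7.41 on KO array 3.

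All 4 spindle checkpoint genes, whose products delay anaphase until chromosomes are attached, were higher in the average without KO replicate 3, and 2 of them, Bub1 and Bub1b, with all arrays. None of the 4 passed in either average when the arrays of a replicate number were averaged first. Bub1, the checkpoint kinase, was below the median of all probe sets in WT CD27 cells, at 5.18, 5.38 and 5.53, with 7.03, 6.05 and 10.33 in KO. In DP it had 5.08, 5.56 and 5.53 in WT and 7.69, 6.75 and 10.89 in KO, and in CD11b 5.47, 5.49 and 5.36 and 7.35, 6.62 and 10.48. The spread of the 3 KO arrays was larger than the gap between KO array 2 and WT. Without KO replicate 3 the difference passed in DP, 3.55-fold (95% interval 2.17 to 5.8, limma adjusted p = 0.0329), and CD11b, 2.92-fold (95% interval 1.79 to 4.78, limma adjusted p = 0.0421), but not in CD27, 2.26-fold (95% interval 1.38 to 3.69, limma adjusted p = 0.112). Bub1b, which encodes the checkpoint subunit BubR1, passed in the same 2 subsets, at 2.51-fold and 2.97-fold (limma adjusted p = 0.0404 and 0.0100). Mad2l1, the Cdc20 inhibitor Mad2, started from a high level, 9.22 to 9.85 in WT, and reached 9.70 to 10.27 on KO arrays 1 and 2; its average difference without KO replicate 3 was 0.44 ± 0.07 log2 (limma, ± SE; adjusted p = 0.00347), and no single subset passed.

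Among 7 kinetochore and centromere genes, Cenpe differed most. Cenpe encodes the kinesin that carries chromosomes to the spindle equator. It had WT arrays 1 to 3 at 6.15, 5.59 and 5.39 and KO arrays 1 to 3 at 8.13, 6.71 and 9.86 in CD27. DP cells had 6.15, 5.67 and 5.52 in WT and 8.07, 7.11 and 10.00 in KO, and CD11b cells 6.32, 5.87 and 5.85 and 8.62, 7.82 and 9.80. KO array 1 was nearer to KO array 3 than to the WT mean for this gene, and no KO array overlapped WT. It passed without KO replicate 3 in CD11b, 4.62-fold (95% interval 2.42 to 8.84, limma adjusted p = 0.0299), and in the average with all arrays, 6.16-fold (95% interval 3.24 to 11.7, limma adjusted p = 0.00216). That average did not pass when the arrays of a replicate number were averaged first (limma adjusted p = 0.229). Cenpa, the histone that marks centromeres, had smaller and more even differences, 1.70-fold, 1.71-fold and 1.64-fold in CD27, DP and CD11b without KO replicate 3 (limma adjusted p = 0.0353, 0.0550 and 0.0480). The Ndc80 complex binds microtubules at the kinetochore, and its subunits were unequal: Nuf2 passed in all 3 subsets without KO replicate 3 (1.84-fold, 1.98-fold and 2.20-fold; limma adjusted p = 0.0267, 0.0240 and 0.00639), while Spc24 stood at 4.95 to 5.20 in WT and 5.09 to 5.42 on KO arrays 1 and 2, an average difference without KO replicate 3 of 0.16 ± 0.04 log2 (limma, ± SE; adjusted p = 0.033). Spc24 did not pass when the arrays of a replicate number were averaged first.

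The chromosomal passenger complex corrects wrong attachments and directs cytokinesis. Its kinase Aurkb, Aurora B, had WT arrays 1 to 3 at 6.28, 6.39 and 6.47 and KO arrays 1 to 3 at 7.62, 6.98 and 10.44 in CD27. In DP it had 6.55, 6.48 and 6.55 in WT and 8.19, 7.82 and 11.01 in KO, and in CD11b 6.99, 6.88 and 6.93 and 8.35, 7.85 and 10.79. The WT arrays lay close together in each subset and below every KO array. Aurkb passed without KO replicate 3 in every subset, at 1.9-fold (95% interval 1.44 to 2.51, limma adjusted p = 0.0359), 2.79-fold (95% interval 2.11 to 3.69, limma adjusted p = 0.00418) and 2.25-fold (95% interval 1.7 to 2.97, limma adjusted p = 0.0104). The scaffold Incenp had a higher level and a smaller difference, 7.50 to 8.17 in WT and 7.93 to 8.56 on KO arrays 1 and 2, and without KO replicate 3 passed only in the average, 0.32 ± 0.05 log2 (limma, ± SE; adjusted p = 0.00412). Birc5, or survivin, and Cdca8, or borealin, lay between these, with average differences without KO replicate 3 of 0.74 and 0.90 log2 that both passed (limma adjusted p = 0.00431 and 0.00626). No gene of this complex passed in the average when the arrays of a replicate number were averaged first.

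Of 9 kinesins, the motors that slide and shorten spindle microtubules, 6 were higher in the average with all arrays and 7 without KO replicate 3. With the arrays of a replicate number averaged first, only Kif11 was, and only without KO replicate 3. Kif18b, which shortens astral microtubules, was below the median of all probe sets in WT CD27 cells, with 5.17, 5.31 and 5.19, and had 6.56, 5.78 and 9.78 in KO. DP cells had 5.24, 5.16 and 5.15 in WT and 7.23, 6.54 and 10.43 in KO, and CD11b cells 5.09, 5.50 and 5.29 and 7.22, 7.11 and 9.95. In DP and CD11b KO arrays 1 and 2 were both above WT by more than the whole WT range. The differences without KO replicate 3 were 3.26-fold (95% interval 2.32 to 4.57, limma adjusted p = 0.00625) in DP and 3.67-fold (95% interval 2.61 to 5.14, limma adjusted p = 0.00194) in CD11b. Kif11, the motor that separates spindle poles, passed in all 3 subsets without KO replicate 3, at 1.87-fold (95% interval 1.51 to 2.32, limma adjusted p = 0.0132), 2.44-fold (95% interval 1.96 to 3.03, limma adjusted p = 0.00209) and 2.31-fold (95% interval 1.86 to 2.86, limma adjusted p = 0.0019). Kif20b did not pass: WT arrays stood at 7.18 to 7.56 and KO arrays 1 and 2 at 7.26 to 7.94, with 9.23 to 9.69 on KO array 3 and an average difference without it of 0.15 ± 0.08 log2 (limma, ± SE; adjusted p = 0.319).

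Prc1 was the gene that passed in every subset with all arrays. Its product bundles the microtubules of the spindle midzone, where the cell will cleave. In CD27 cells it had WT arrays 1 to 3 at 6.37, 6.29 and 6.60 and KO arrays 1 to 3 at 8.38, 8.22 and 9.64. In DP cells it had WT arrays 1 to 3 at 6.81, 6.38 and 6.93 and KO arrays 1 to 3 at 8.75, 8.77 and 10.04. The CD11b cells had WT arrays 1 to 3 at 6.90, 6.84 and 7.09 and KO arrays 1 to 3 at 8.77, 8.73 and 9.76. KO arrays 1 and 2 were nearly equal in each subset, and KO array 3 stood above them. It passed in every subset with all arrays, 5.01-fold (95% interval 2.8 to 8.95, limma adjusted p = 0.0108), 5.59-fold (95% interval 3.13 to 9.99, limma adjusted p = 0.0105) and 4.42-fold (95% interval 2.47 to 7.89, limma adjusted p = 0.0135), and without KO replicate 3 it was 3.68-fold, 4.16-fold and 3.50-fold higher. Of the other spindle proteins, Nusap1, which binds microtubules near chromatin, had 9 WT values of 5.84 to 6.37, KO array 1 at 7.44 to 8.28, KO array 2 at 6.74 to 7.91 and KO array 3 at 10.53 to 11.17. Hmmr passed in all 3 subsets without KO replicate 3 (1.94-fold, 2.53-fold and 2.62-fold; limma adjusted p = 0.0338, 0.00947 and 0.00432), and Tpx2, the activator of Aurora A, in CD11b, 3.47-fold (95% interval 2.05 to 5.89, limma adjusted p = 0.0301). All 4 spindle proteins passed in the average, with all arrays and without KO replicate 3. With the arrays of a replicate number averaged first, only Prc1 did, and only without KO replicate 3.

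Cytokinesis and exit from mitosis gave mixed results. Anln encodes anillin, the scaffold of the contractile ring. It had WT arrays 1 to 3 at 5.79, 5.61 and 5.98 and KO arrays 1 to 3 at 6.37, 5.71 and 9.41 in CD27, where KO array 2 lay inside the WT range. In CD11b it had WT arrays 1 to 3 at 6.06, 5.81 and 6.05 and KO arrays 1 to 3 at 7.36, 7.02 and 9.62, with no overlap, and passed without KO replicate 3 at 2.32-fold (95% interval 1.69 to 3.19, limma adjusted p = 0.0169). Racgap1, a subunit of centralspindlin, was already high in WT, 9.52 to 10.97, and overlapped between genotypes in CD27 and CD11b; its average difference was 0.42 ± 0.16 log2 (limma, ± SE; adjusted p = 0.131) with all arrays and 0.21 ± 0.13 log2 (limma, ± SE; adjusted p = 0.462) without KO replicate 3. Cdc20 activates the anaphase-promoting complex, Ube2c works with it to put ubiquitin on its targets, and Espl1 is separase, the protease that cuts cohesin. With KO replicate 3 left out, Ube2c rose in DP, 2.73-fold (95% interval 1.84 to 4.06, limma adjusted p = 0.0363), and Cdc20 and Espl1 in CD11b, 1.63-fold (95% interval 1.29 to 2.04, limma adjusted p = 0.048) and 1.51-fold (95% interval 1.25 to 1.84, limma adjusted p = 0.0453). Cdca3, a trigger of mitotic entry through Wee1 degradation, had WT arrays 1 to 3 at 5.64, 5.83 and 5.47 and KO arrays 1 to 3 at 7.03, 6.53 and 9.38 in DP and passed in the average without KO replicate 3, 2.18-fold (95% interval 1.6 to 2.96, limma adjusted p = 0.00694). KO array 2 was lower for it than KO array 1 in every subset, and in CD27, at 5.81, it was just above the highest WT array, 5.74. The average difference of Cdca3 did not pass when the arrays of a replicate number were averaged first.

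Of 8 condensin and chromosome genes, 4 rose in DP and the same number in CD11b without KO replicate 3. Mki67 encodes Ki-67, the coat protein of mitotic chromosomes and a standard marker of cycling cells. It had WT arrays 1 to 3 at 9.21, 8.90 and 8.99 and KO arrays 1 to 3 at 10.74, 10.32 and 12.33 in CD27. In DP it had 9.45, 8.95 and 8.96 in WT and 10.84, 10.43 and 12.59 in KO, and in CD11b 9.51, 9.21 and 9.06 and 11.04, 10.82 and 12.38. Its WT level was among the higher ones, and the lowest KO array of a subset still lay above the highest WT array. The differences without KO replicate 3 were 2.82-fold (95% interval 2.08 to 3.83, limma adjusted p = 0.00577), 2.86-fold (95% interval 2.11 to 3.89, limma adjusted p = 0.0067) and 3.18-fold (95% interval 2.34 to 4.32, limma adjusted p = 0.00205). Top2a, topoisomerase II alpha, had 7.34, 7.67 and 7.76 in WT and 8.20, 7.72 and 11.35 in KO CD27 cells, where KO array 2 lay inside the WT range, but without KO replicate 3 passed in DP, 2.24-fold (95% interval 1.75 to 2.86, limma adjusted p = 0.00909), and CD11b, 1.94-fold (95% interval 1.52 to 2.48, limma adjusted p = 0.0149). Top2a is the member with more than 1 probe set, and its other one did not show this: there the difference was 1.14-fold in DP and 1.18-fold in CD11b without KO replicate 3 (limma adjusted p = 0.893 and 0.838), and 1.32-fold and 1.3-fold with all arrays (limma adjusted p = 0.703 and 0.671). The condensin I subunits Ncapd2 and Ncaph passed in the same 2 subsets. Smc4, the condensin ATPase that both condensin complexes share, went the other way in part. It had WT arrays 1 to 3 at 11.08, 11.29 and 11.42 and KO arrays 1 to 3 at 11.00, 10.92 and 11.66 in CD27, KO arrays 1 and 2 below all WT arrays, a difference without KO replicate 3 of -0.31 ± 0.10 log2 (limma, ± SE; adjusted p = 0.187) that did not pass. Its WT range over 9 arrays was 10.90 to 11.42, and its WT mean was the highest of the 53 genes.

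The average without KO replicate 3 passed in 43 genes and not in the other 10: Cdc25b, Plk4, Pbk, Kif20b, Kif23, Racgap1, Smc2, Smc4, Ncapg and Cdca2. Members not described above that passed were the kinases Melk and Ttk, the kinetochore genes Cenpf, Ndc80 and Spc25, the kinesins Kif15, Kif20a, Kif22, Kif2c and Kif4, and Ect2, the exchange factor that activates RhoA at the cleavage site. Their average differences ran from 0.39 log2 in Ndc80 to 1.24 in Kif20a. Smc2, the partner of Smc4, and Ncapg, a condensin I subunit, gave 0.28 and 0.73 log2 without passing (limma adjusted p = 0.156 and 0.0540). The fit that gave the 43 counts the arrays of a replicate number as separate samples. With those averaged first, only 5 of the 43 passed: Cdk1, Nuf2, Kif11, Prc1 and Ube2c. Among the rest, Mad2l1, Ndc80, Spc24, Incenp, Cdca8, Kif15, Kif20a and Cdca3 passed in no single subset without KO replicate 3.

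With all 18 arrays fewer of the average differences passed, 28 against 43. These fits count the 3 arrays of a replicate number as separate samples, and none of the 28 passed when those were averaged first. Among regulators of entry and kinases, Ccnb2, Cdk1 and Plk1 were 7.57-fold, 3.47-fold and 4.3-fold (limma adjusted p = 0.000251, 0.043 and 0.0167) higher in KO cells. Cdc25c, Aurka and Plk4 were at 1.98-fold, 2.42-fold and 1.65-fold (limma adjusted p = 0.0767, 0.0642 and 0.322) without passing. Of the checkpoint genes, Bub1 and Bub1b passed at 6.66-fold and 4.53-fold (limma adjusted p = 0.0215 and 0.0144), and Mad2l1 did not at 2.04-fold (limma adjusted p = 0.0643). Cenpa and Nuf2 were 2.2-fold and 4.03-fold (limma adjusted p = 0.00629 and 0.0357) higher, and Spc24 stood at 1.69-fold (limma adjusted p = 0.184). In the passenger complex Aurkb and Cdca8 passed at 4.5-fold and 3.72-fold (limma adjusted p = 0.0218 and 0.047), whereas Incenp and Birc5 gave 1.74-fold and 3.17-fold (limma adjusted p = 0.0769 and 0.0584). The motors Kif18b and Kif11 rose 6.12-fold and 4.12-fold (limma adjusted p = 0.0158 and 0.0204), and Kif20b was at 1.7-fold (limma adjusted p = 0.204). The spindle proteins Prc1, Hmmr and Tpx2 rose 4.98-fold, 4.24-fold and 4.32-fold (limma adjusted p = 3.08e-05, 0.0143 and 0.0144). Of the exit genes, Ube2c, Cdc20 and Cdca3 rose 3.27-fold, 2.5-fold and 3.77-fold (limma adjusted p = 0.00834, 0.032 and 0.0185), and Espl1 and Anln gave 2.44-fold and 3.55-fold (limma adjusted p = 0.109 and 0.0545). Mki67 rose 4.4-fold (limma adjusted p = 0.00116), while Top2a and Smc4 gave 3.55-fold and 1.06-fold (limma adjusted p = 0.0523 and 0.785).

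**Figure D5:**
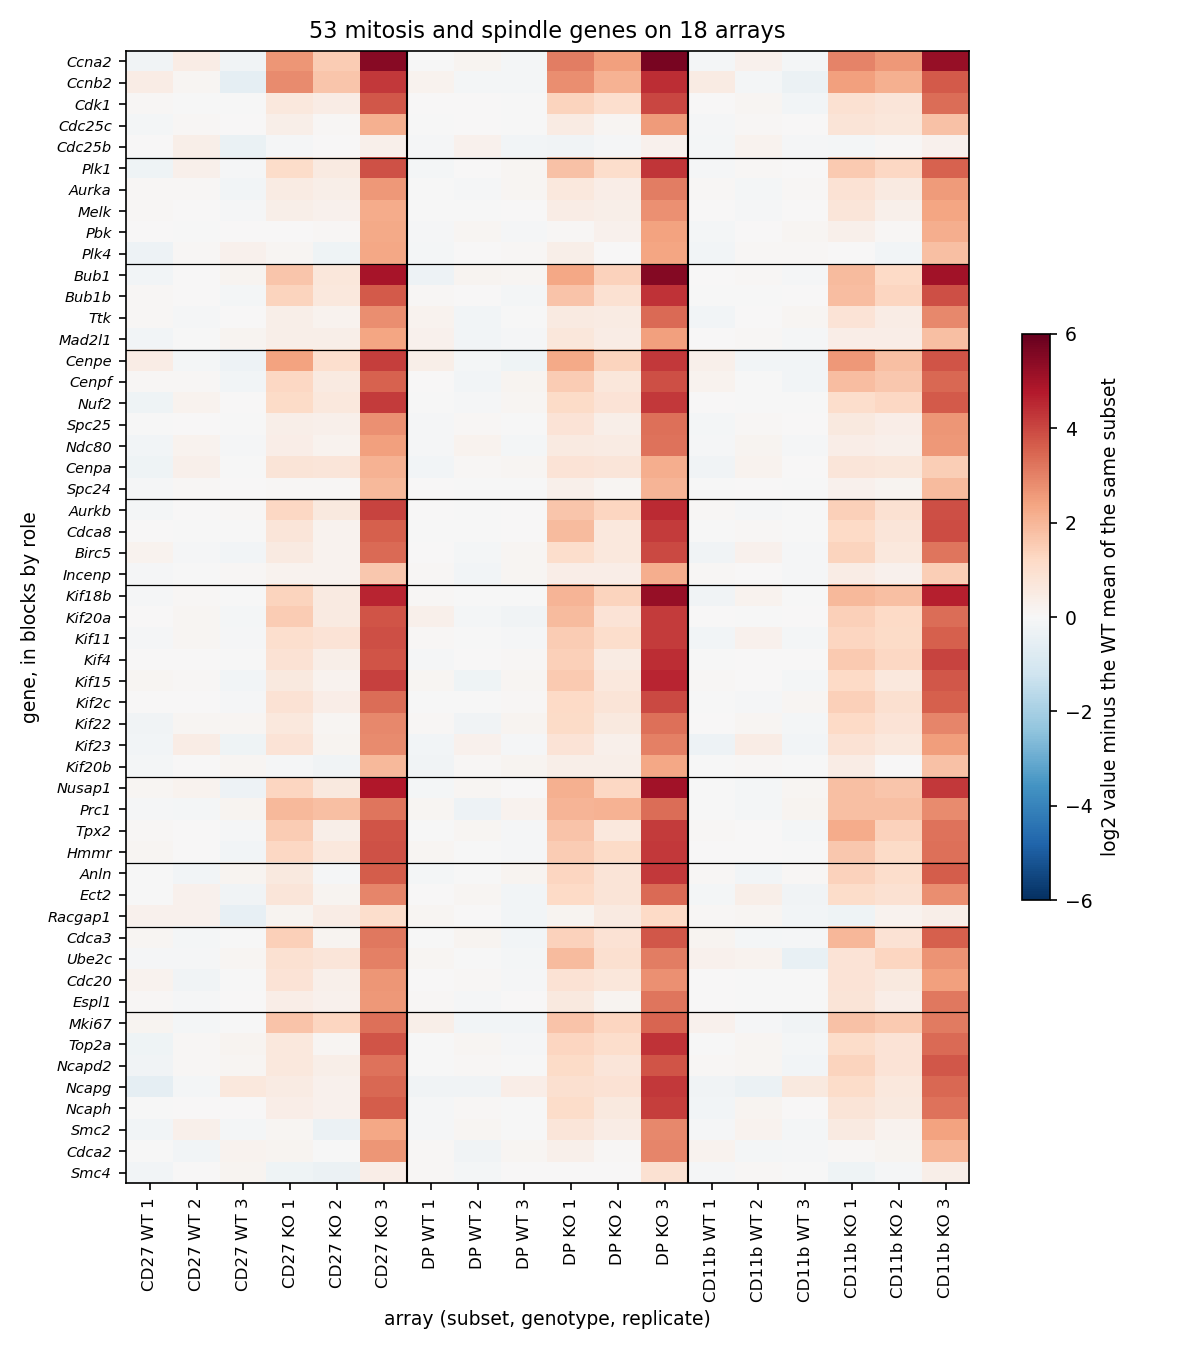
Log2 value of each of the 53 genes on each of the 18 arrays minus the WT mean of the same subset, with genes in blocks by role and columns by subset, genotype and replicate. KO array 3 is the darkest column in each subset, up to 5.70 log2 for Ccna2 in DP, KO arrays 1 and 2 are paler but mostly red, and Cdc25b and Smc4 are near white.

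Genes next to these in the pathway were taken from 7 further lists. DNA replication genes, 41 with a probe set, stood near WT on KO arrays 1 and 2 and high on KO array 3: their median differences from WT were -0.03, 0.07 and -0.00 log2 on KO array 1 of CD27, DP and CD11b and -0.15, 0.00 and -0.13 on KO array 2, against 1.84, 2.07 and 1.76 on KO array 3.  None of the 41 rose in a subset in either fit, and Pola1, DNA polymerase alpha, fell in CD27 without KO replicate 3, by 0.62 log2 (limma adjusted p = 0.0381), with WT arrays 1 to 3 at 7.30, 7.39 and 7.20 and KO arrays 1 to 3 at 6.72, 6.63 and 9.76. In the average without KO replicate 3, 2 rose (2.74% of all probe sets) and 6 fell (3.57%). Rrm2, the small subunit of ribonucleotide reductase, rose by 0.70 log2 and Clspn by 0.23; Cdt1, the licensing factor, fell by 0.46 and Mcm2 by 0.28 (limma adjusted p = 0.00809, 0.0455, 0.0166 and 0.0482). With all arrays these 4 were at 1.92, 1.08, 0.04 and 0.62 log2 and Pola1 in CD27 at 0.41, and none passed (limma adjusted p = 0.0931 to 0.966). The difference between the lists was not tested.

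The lists of further mitotic genes followed the members in part. Of 29 other spindle and cytokinesis genes, 1, 3 and 11 rose in CD27, DP and CD11b without KO replicate 3, with medians of 0.31, 0.43 and 0.33 log2. Aspm, a protein of spindle poles, passed in all 3, with WT arrays 1 to 3 at 5.36, 5.34 and 5.38 and KO arrays 1 to 3 at 6.50, 6.06 and 9.20 in CD27 and no overlap. Of 32 other kinetochore genes 1, 1 and 4 rose, and of 20 other kinases, cyclins and regulators 0, 3 and 4, among them Cks1b, the small Cdk-binding subunit, 2.97-fold in DP and 2.85-fold in CD11b (limma adjusted p = 0.0488 and 0.0335; with all arrays 5.43-fold and 4.69-fold, limma adjusted p = 0.291 and 0.226). Cenpm, a centromere protein, was 2.56-fold higher in CD27 and Sgo2a, a shugoshin that protects centromeric cohesin, 2.43-fold in DP, both without KO replicate 3 (limma adjusted p = 0.0193 and 0.0277); with all arrays they were 3.85-fold and 4.61-fold (limma adjusted p = 0.185 and 0.425). No gene of these 3 lists fell in a subset, and the all-array fit called 1 of them, Nek7, higher in DP and CD11b (1.30-fold in each; limma adjusted p = 0.0440 and 0.0205), calls it kept without KO replicate 3. The 12 subunits of the anaphase-promoting complex, whose activator Cdc20 is a member, had medians of 0.05, 0.02 and 0.00 log2 without KO replicate 3 and none passed. The 13 cohesin and condensin II genes had none passing in a subset. On KO array 3 their median differences from WT were 0.21, 0.41 and 0.09 log2 in CD27, DP and CD11b. The highest was that of Ncapg2, at 4.14, 4.71 and 4.12. On KO array 1 Ncapg2 was again the highest, at 0.37, 1.06 and 1.02. On KO array 2 it was at 0.19 in DP and 0.14 in CD11b. Counts over all probe sets are those given with the members.

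Of 36 regulators of this programme, few passed. Foxm1, the activator named above, had WT arrays 1 to 3 at 6.62, 6.78 and 6.68 and KO arrays 1 to 3 at 7.87, 7.50 and 9.70 in CD11b and rose there without KO replicate 3, 1.99-fold (limma adjusted p = 0.0172), against 3.16-fold with all arrays (limma adjusted p = 0.366). In CD27 and DP it was 1.53-fold and 1.65-fold without that replicate and did not pass (adjusted p = 0.117 and 0.123). Mybl2, which encodes B-Myb, stood at 6.43 to 6.88 in WT and 6.44 to 7.08 on KO arrays 1 and 2, and E2f1 at 5.52 to 6.16 and 5.61 to 6.37; neither passed in a KO against WT comparison. Cdkn1b, the Cdk inhibitor p27, had an average difference of -0.28 log2 (limma adjusted p = 0.0777) with all arrays and -0.15 log2 (limma adjusted p = 0.276) without KO replicate 3. E2f5, a repressive E2F of resting cells, fell in CD27 and CD11b with all arrays, by 0.60 and 0.87 log2 (limma adjusted p = 0.0461 and 0.00380), and Btg1, an antiproliferative factor, fell in CD27 by 0.65 (adjusted p = 0.0447). E2f5 kept its call in CD11b without KO replicate 3 (limma adjusted p = 0.0222) and lost it in CD27 (adjusted p = 0.0669), and Btg1 kept it (adjusted p = 0.0204).

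Differences between maturation stages were small in WT and uneven between replicates in KO. With all arrays, none of the 53 passed in limma in any of the 6 comparisons of subsets within a genotype, and 0 to 2 had an unadjusted p under 0.05 (5.66% to 16.8% of all probe sets). Of all probe sets, 0.218% were higher and 0.339% lower from WT CD27 to DP, 0.308% and 0.218% from WT DP to CD11b, and 2.88% and 2.13% from WT CD27 to CD11b; in KO the shares were 0.00565% and 0.0141%, 0.282% and 0.232%, and 1.25% and 0.828%. Median differences in WT were 0.02 log2 from CD27 to DP, 0.14 from DP to CD11b and 0.14 from CD27 to CD11b; in KO they were 0.40, -0.00 and 0.37. The spread of KO replicate 3 enters the error of WT comparisons too, since the groups share one estimate. Without KO replicate 3 the fit called 7 genes higher in WT CD11b than in WT CD27 cells (4.37%): Cdk1, Mad2l1, Incenp, Kif11, Prc1, Racgap1 and Cdca2. Racgap1 had 10.24, 10.25 and 9.52 in WT CD27 and 10.93, 10.97 and 10.67 in WT CD11b cells, with no overlap, a rise of 0.85 ± 0.20 log2 (limma, ± SE; adjusted p = 0.025). Cdk1 rose by 0.50 ± 0.09 log2 (limma, ± SE; adjusted p = 0.00648) and Cdca2, a chromatin-bound phosphatase subunit, by 0.77 ± 0.13 log2 (limma, ± SE; adjusted p = 0.00367). Between WT DP and CD11b Cdk1 and Incenp rose (0.449% of all probe sets higher, 0.449% lower). None passed between WT CD27 and DP (0.347% higher, 0.528% lower; 1 of 53 at an unadjusted p under 0.05, against 10.9% of all), and none was lower in WT CD11b than in WT CD27 cells (3.05%).

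In KO cells 6 genes were higher in CD11b than in CD27 without KO replicate 3 (0.949%): Cdk1, Incenp, Kif11, Anln, Top2a and Cdca2. None was lower (0.768%), and none passed from KO CD27 to DP (0% of all probe sets in either direction; 20 of 53 at an unadjusted p under 0.05, against 7.13% of all) or from KO DP to CD11b (0.119% higher, 0.218% lower; 4 of 53, against 8.94%). Anln had 6.37 and 5.71 on KO arrays 1 and 2 of CD27 and 7.36 and 7.02 of CD11b, a rise of 1.15 ± 0.23 log2 (limma, ± SE; adjusted p = 0.0299). On these 2 replicates the mean of the 53 genes rose with each stage, from 7.43 to 7.81 to 7.92 and from 7.01 to 7.38 to 7.64. On KO replicate 3 it was highest in DP, 9.72, 10.13 and 9.75. With the replicate number as a block, which the KO arrays and the WT CD11b arrays bear out, all 18 arrays gave 14 genes higher in KO CD11b than in KO CD27 cells (3.65%), 2 in KO DP than in KO CD27 cells, Bub1 and Aurkb (0.0989%). None passed between KO DP and KO CD11b (0.737% higher, 1.1% lower; 2 at an unadjusted p under 0.05, against 13.4% of all) or WT CD27 and WT DP (0.955% higher, 1.01% lower; 5, against 13.5%). In WT CD11b 6 were higher than in WT CD27 cells (6.33%; none lower, 4.59%), and from WT DP to WT CD11b Racgap1 higher (1.39%) and Cdc25b lower (1.02%). The same block without KO replicate 3 gave 27 genes higher in KO CD11b than in KO CD27 cells (1.94%), 2 than in KO DP cells, Cdc25c and Tpx2 (0.271%), 12 higher in WT CD11b than in WT CD27 cells (6.04%), and 6 higher (1.08%) and 1 lower, Cdc25b (0.986%), from WT DP to WT CD11b. Whether the genotype difference itself depended on the stage was tested with the interaction F test: none of 53 passed with all arrays (0.0113% of all probe sets) or without KO replicate 3 (0.00847%). At an unadjusted p under 0.05 there were 0 with all arrays (4.18% of all probe sets) and 6 without KO replicate 3 (5.68%). With a fixed block on the numbers these became 15 (8.57%) and 27 (8.44%), and with a random block 0 (6.81%) and 11 (7.26%), and again none passed after adjustment (smallest limma adjusted p = 0.146). The larger counts in CD11b than in CD27 were thus not shown to be a larger genotype difference there.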

How the data were processed

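Labelled cDNA of 18 arrays (Mouse Gene 1.0 ST) was measured. The deposited log2 values were made by the authors; the submitters' processing notes name Partek and RMA without versions, with the log2 scale inferred here from their range. The table was used as deposited, with no filter. Of 35399 probe sets 21789 have 1 gene symbol, 1621 have several and 11989 are not listed in the annotation. limma 3.58.1 in R 4.3.3 fitted 1 mean per subset and genotype (12 residual degrees of freedom), with eBayes, two-sided tests and Benjamini-Hochberg adjustment over all probe sets; an adjusted p under 0.05 was called passing. With 3 arrays a group the precision is that of the spread between arrays. Every value on each array was computed for all 53 members. Text values are given for members of each role that passed, those with the largest and the smallest average difference, and textbook members; of other lists, for the largest changes that passed and fixed regulators. Of 251 list and marker genes 243 had a probe set, 8 through an older symbol. Members and lists were chosen with earlier results of these data known. The procedure was tested on simulated data. Promoter letters were read from the RefSeq table with Python 3.11.15.

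Replicate numbers were checked by correlating deviations from group means: same-numbered KO arrays gave r of 0.213 to 0.642 in all subset pairs, WT CD11b arrays 0.218 to 0.456 with DP and CD27, WT CD27 and DP 0.440, 0.139 and -0.00943, so these 2 are not paired, and WT with KO -0.0726 to 0.190. Alternatives were other normalization, filters, priors, weights, blocks, leaving out arrays and, chosen after the data were seen, further settings without KO replicate 3.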

Additional observations from a re-analysis of the deposited data

How the results depend on the processing

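The counts of passing genes depended on KO replicate 3, on KO array 1 and on whether arrays of a number were averaged. Without KO replicate 3 the KO against WT counts rose from 2, 1, 1 and 28 to 10, 20, 33 and 43 (CD27, DP, CD11b, average), and the subset counts from 0 to 2 (WT CD11b against DP), 7 (WT CD11b against CD27) and 6 (KO CD11b against CD27). A random replicate block gave 3, 2 and 5 for KO against WT and 22 in the average (Cdk1, Nuf2, Cdca8, Kif22, Kif4 and Ncapd2 lost). It gave 1 for WT CD11b against CD27, with a correlation of 0.206 over all probe sets where the members alone gave 0.966. For KO against WT and the average, 25, 45, 35 and 49 of 53 had an unadjusted p under 0.05 (12.3%, 10.5%, 13.6% and 16.3% of all probe sets). A fixed block gave 3 in CD27, 2 in DP, 5 in CD11b and 44 in the average for KO against WT. For the subsets it gave 2 (KO DP against CD27), 14 (KO CD11b against CD27), 2 (WT CD11b against DP) and 6 (WT CD11b against CD27). With this block 28, 47, 38 and 51 of 53 had an unadjusted p under 0.05 for KO against WT and the average (13.5%, 11.8%, 15.1% and 23.2% of all probe sets). The random block without KO replicate 3 gave 10, 23 and 33 for KO against WT. It gave 3, 8 and 11 for WT CD11b against DP, WT CD11b against CD27 and KO CD11b against CD27. Since WT and KO numbers do not pair, the fixed block bears on the subset comparisons. Without KO replicate 3 it gave 12, 27 and 35 for KO against WT, 43 in the average, and 12 and 27 for WT and KO CD11b against CD27. With array weights the counts were 8, 3 and 5 in CD27, DP and CD11b and 1 for WT CD11b against CD27. With probe sets above the median mean there were 2 in DP and in CD11b, and with a trend and robust prior 1 in CD27. The compared groups alone gave 0 in each subset and 5 for WT CD11b against CD27. Shares of all probe sets that passed are not given for the random block or for the fixed block in KO against WT. They are also not given for the weights, the filter, the prior, the compared groups alone or leaving out 1 array. Counts of passing genes in those settings are therefore not set against a background. Averaging the 3 arrays of a number gave 0 in the average and 5 without KO replicate 3. Leaving out 1 array gave 0 to 2 in each subset (0 without WT array 2 and, in CD11b, without KO array 3) and 19 to 36 in the average, and, starting without KO replicate 3, 3 to 8, 3 to 24, 5 to 31 and 42 to 44. The medians of the KO against WT differences stayed above 0 in every setting run, from 0.47 (without KO array 3) to 1.98 in CD27, 0.97 to 2.56 in DP and 0.96 to 2.24 in CD11b when 1 array was left out; those of the KO subset comparisons ranged from -0.25 to 1.25 (CD11b against CD27), -0.70 to 0.91 (CD11b against DP) and -0.49 to 1.21 (DP against CD27).

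Directions turned for differences that did not pass with all arrays. Without KO replicate 3, with or without the random block, Cdc25b was at -0.0261 (CD27), -0.0350 (CD11b) and -0.0697 (average), Kif20b at -0.14, Plk4 at -0.0803 and Smc2 at -0.11 in CD27, Plk4 at -0.0755, Racgap1 at -0.0315 and Smc4 at -0.15 in CD11b, and Smc4 at -0.14 in the average. Array weights gave Cdc25b -0.19 (CD27) and -0.0823 (average) and Smc4 -0.0661 (CD11b) and -0.0484 (average); cyclic loess gave Cdc25b 0.0421 in DP; the other probe set of Top2a gave -0.26 for KO CD11b against CD27. Leaving out 1 array at a time gave ranges that cross 0: Cdc25b -0.0201 to 0.109 (average), -0.124 to 0.263 (CD27), -0.148 to 0.126 (DP) and -0.0350 to 0.166 (CD11b); Smc4 -0.00841 to 0.141 (average), -0.308 to 0.0661 (CD27) and -0.150 to 0.157 (CD11b); Plk4 -0.0803 to 1.20 (CD27) and -0.0755 to 0.915 (CD11b); Kif20b -0.140 to 0.931 and Smc2 -0.108 to 1.22 (CD27); Racgap1 -0.0315 to 0.267 (CD11b); and, for KO CD11b against CD27, Cdca2 -0.0494 to 1.44, Cdk1 -0.278 to 1.61, Kif11 -0.198 to 1.57 and Top2a -0.136 to 1.80. The cause of these turns was not tested.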

Other observations

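The Y-linked gene Eif2s3y stood at 11.02 to 11.15 on WT array 1 and KO arrays 1 and 2 of all subsets. On WT array 3 it was at 4.86, 5.53 and 5.36 in CD27, DP and CD11b, and on WT array 2 at 6.44, 8.12 and 7.23. On KO array 3 it was at 6.83, 8.54 and 9.10, between the low and the high arrays, with Xist at 13.00, 12.87 and 12.64. Gzmb, which encodes granzyme B, stood at 10.86, 9.68 and 10.43 in WT CD27 cells and at 12.49, 12.28 and 12.35 in KO CD27 cells, where the 3 KO arrays lay together, unlike the mitosis genes on the same arrays; it was chosen after its values were seen.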
